A study of Mus musculus with 18 samples.

Results

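Untreated mouse embryonic stem cells that had been differentiated toward heart muscle were compared at the last pair of harvests, 2 libraries at D12 (numbers 9 and 19) against 2 libraries at D8 (numbers 13 and 17). These are 4 of the 18 libraries of polyA RNA in the series, chosen by their day and condition and not by any measured value. The cells are of 1 stem cell line, GLI1-FTA, made on an A2Lox.cre background, in which doxycycline induces the Hedgehog transcription factor GLI1. The 4 libraries received no doxycycline. Cells given 500 ng/ml doxycycline for 24 hours between D5 and D6 and then washed are the pulsed cells below, with 2 libraries at D12 and 2 at D8. Untreated cells at D6, with 3 libraries, are given as context. The labels call both harvests immature cardiomyocytes, with no sorting step named, so each library stands for all cells of a culture. Separate cultures are not stated for the libraries of a day, so p-values here reflect only how far these samples differ from each other, possibly for technical reasons. In such bulk samples, fewer cells of a type and less RNA per cell cannot be told apart.

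Cardiomyocytes of the embryo divide, use much glucose and build a fetal version of the contractile apparatus. As they mature they leave the cell cycle, exchange fetal for adult forms of sarcomere and calcium handling proteins, and turn from glycolysis to fatty acid oxidation. Cultures of this kind also form other mesoderm derivatives such as fibroblasts, smooth muscle and endothelium, which lay down extracellular matrix.

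Total counts were 21433728 and 20752024 in D12 libraries 9 and 19, against 22064021 and 22042794 in D8 libraries 13 and 17. The 18 libraries ranged from 18470785 to 26184339, so counting error is small for any gene above a few CPM (counts scaled to library size by trimmed mean of M-values). The median absolute log2 difference between libraries of a day was 0.184 at D12 and 0.181 at D8. On the first principal component of all 18 libraries, which held 52.8% of the variance, the D12 libraries lay at 116.9 and 118.4, against 52.98 and 43.06 for D8. Gli1 stood at 0.808 and 0.902 CPM at D12, against 0.752 and 1.18 CPM at D8, a low level in all 4 libraries.

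The cardiomyocyte label was first set against marker genes, and the amount of cardiomyocyte RNA differed more between libraries of a day than between days. All 7 defining markers (Tnnt2, Myh6, Actn2, Ttn, Nkx2-5, Tnni3 and Myl7) were above 1 CPM in all 4 libraries. Their summed level was 3603 and 8702 CPM in D12 libraries 9 and 19, against 8959 and 4119 CPM in D8 libraries 13 and 17. Each day thus had 1 library rich in cardiomyocyte RNA and 1 poor in it, and the days overlap. The summed level of 24 fibroblast and epicardial markers was 26160 and 24570 CPM at D12, against 10730 and 14720 CPM at D8. A sum depends on the number and level of the genes in its list. The sums therefore compare libraries and do not rank cell types by amount of RNA. Markers of cartilage and bone summed to 538.1 and 484.5 CPM at D12, against 257 and 272.1 CPM at D8. Those of smooth muscle (3440 and 5219 CPM at D12, against 3105 and 3009 CPM at D8) and of endothelium (1380 and 1715 CPM, against 1114 and 1276 CPM) were also higher in both D12 libraries.

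Markers of other cell types had low sums. Neural markers summed to 204.9 and 222.4 CPM at D12, against 216.1 and 241.5 CPM at D8, with Sox1 and Neurog2 at 0 in all 4 libraries. Endoderm markers summed to 148.2 and 146.8 CPM at D12, against 129.4 and 167.7 CPM at D8, with Alb and Apoa2 among the markers at 0. Blood and macrophage markers summed to 114.9 and 105.1 CPM at D12, against 160 and 176.4 CPM at D8. The adult globins Hba-a1 and Hbb-b1 were at 0, but both have near-identical copies and are uncertain. Skeletal and paraxial markers summed to 28.09 and 28.64 CPM at D12, against 36.23 and 33.56 CPM at D8, with Myf5, Myf6, Myod1 and Myh8 at 0. The part that these cell type sums have in the changes below was not tested, except where cardiac genes are rescaled to the cardiomyocyte sum.

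**Figure D1:**
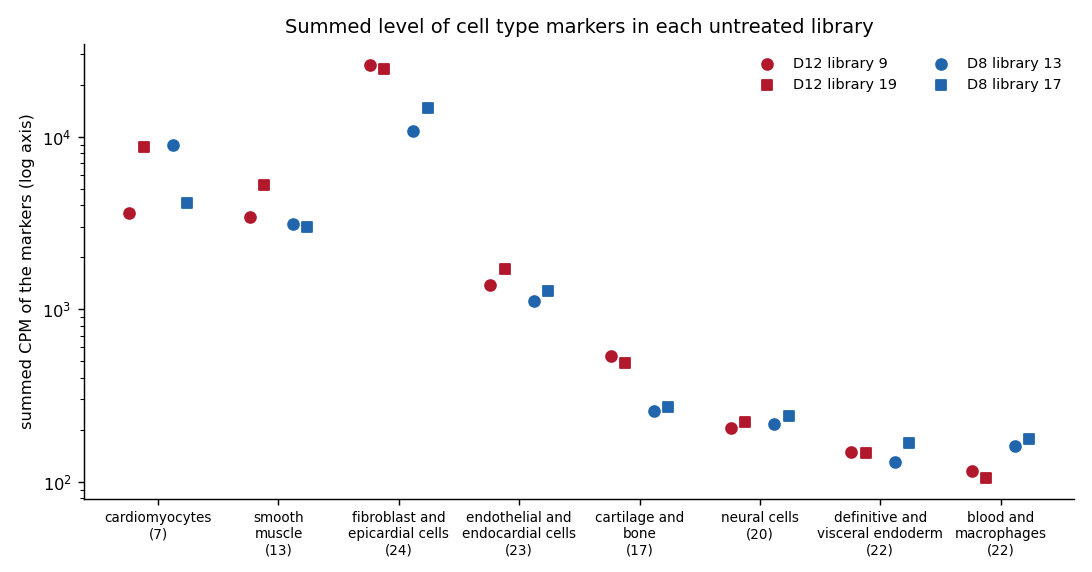
Summed CPM of the marker genes of 8 cell types (log axis, number of markers in brackets) in D12 libraries 9 and 19 (red) and D8 libraries 13 and 17 (blue), each point 1 library. The cardiomyocyte sum overlaps between days, 3603 and 8702 CPM against 8959 and 4119 CPM, while the fibroblast and epicardial sum is higher in both D12 libraries.

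Between D8 and D12 a large share of the transcriptome changed. Of 14892 genes tested with edgeR's quasi-likelihood test on counts, 5411 (36.3%) had a Benjamini-Hochberg adjusted p under 0.05 and are termed called. Of these 2521 rose at D12 (16.9% of genes tested) and 2890 fell (19.4%). With at least a 2-fold change as well, 2438 were called (16.4%), 1032 higher and 1406 lower. The values of the days did not overlap for 10781 genes, 72.4% of those tested, and the median log2 fold change of all genes was -0.04. These shares are the background for every list below. Without D8 library 17 the called genes numbered 3492, and without D12 library 19 they numbered 3599. With upper-quartile scaling the median moved by -0.10 and the calls split into 2056 higher and 3540 lower, which is 36.7% higher in place of 46.6%.

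Among called genes with a mean log2 CPM of at least 1 over the 4 libraries, the largest rises included genes of matrix and membrane transport that were close to silent at D8. Ogn, the matrix proteoglycan osteoglycin, stood at 25.2 and 26.8 CPM at D12, against 0.133 and 0.262 CPM at D8 (log2 fold change 7.0 ± 1.30, edgeR adjusted p = 0.00106). The days did not overlap and the D8 levels were near 0. Thbs2, which encodes a matrix glycoprotein of the thrombospondin family, stood at 126.5 and 80.1 CPM at D12, against 4.11 and 2.35 CPM at D8 (5.0 ± 1.08, edgeR adjusted p = 0.00292). Stmn2, a microtubule regulator best known from neurons, stood at 35.4 and 31.9 CPM at D12, against 0.619 and 1.31 CPM at D8 (5.12 ± 0.76, edgeR adjusted p = 0.000247). Kcne4, a subunit of potassium channels, rose by 6.63. The anion transporter gene Slc26a7 (4.94), the reductase gene Akr1c14 (4.82), Adamtsl3 (5.13) and the stress gene Nupr1 (5.78) were also among the 10 largest rises, as was Casq2 below. Of the 10, Nupr1 alone lost its call, under 2 of 11 alternatives.

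Under the same rule the largest falls included genes of early embryonic cells, Lin28a below being another of the 10. Tdgf1, a co-receptor of Nodal that marks pluripotent and early mesoderm cells, stood at 0.354 and 0.902 CPM at D12, against 38.8 and 33.8 CPM at D8 (-5.85 ± 0.68, edgeR adjusted p = 5.03e-05). Pluripotency genes did not fall as a group. Of 7 tested 1 was called lower, Tdgf1, and 1 higher, and their log2 fold changes ran from -5.85 to 6.31. Foxh1, a transcription factor of the Nodal pathway, stood at 1.06 and 1.17 CPM at D12, against 15.8 and 52.9 CPM at D8 (-4.94 ± 0.84, edgeR adjusted p = 0.000557). It had been 120.9 to 135.5 CPM at D6, and its call was lost with limma-voom (0.0645). Has2, the hyaluronan synthase of the forming heart valves, stood at 16.0 and 10.1 CPM at D12, against 270.5 and 349.9 CPM at D8 (-4.57 ± 0.43, edgeR adjusted p = 1.54e-05). Dpysl4, a gene of neuronal outgrowth, had 3 counts over the D12 libraries, against 196 at D8, or 0.018 times as many (exact 95% interval 0.00369 to 0.0535, for counting error only). The WNT receptor gene Fzd10 (-4.95), the embryonic globin gene Hbb-y (-6.60), the retinoic acid degrading enzyme gene Cyp26a1 (-5.12), Vrtn (-4.98) and Aox4 (-5.01) also fell, and each of these 5 lost its call under 1 to 7 of 11 alternatives.

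Genes of DNA replication fell as a group. Of 30 tested, 28 were called lower and 0 higher, against 19.4% lower over all genes, and the list median was -1.51. All 30 estimates were below 0 and all 30 had days that did not overlap, against 72.4% of all genes. Mcm2, a subunit of the replicative helicase, stood at 76.1 and 62.1 CPM at D12, against 183 and 198.4 CPM at D8 (-1.46 ± 0.15, edgeR adjusted p = 1.99e-05). Rrm2, the subunit of ribonucleotide reductase that limits the supply of deoxynucleotides, stood at 30.2 and 16.9 CPM at D12, against 178.7 and 163.8 CPM at D8 (-2.86 ± 0.34, edgeR adjusted p = 5.34e-05). Both genes had been higher still at D6, with Mcm2 at 290.7 to 325.9 CPM. Cdc6, which loads the helicase at origins, stood at 5.20 and 2.60 CPM at D12, against 28.0 and 31.8 CPM at D8 (-2.93 ± 0.37, edgeR adjusted p = 8.73e-05). Fen1, which trims lagging strand fragments, fell by 1.83 ± 0.22 (edgeR adjusted p = 4.99e-05), and Pcna, the sliding clamp, by 1.58 ± 0.21 (edgeR adjusted p = 0.000111). Library 19, which had the higher cardiomyocyte sum, had the lower value at D12 of each of these 5 genes.

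Mitosis genes also fell, by less. Of 30 tested, 24 were called lower, with a list median of -1.02. The days did not overlap for 30 of 30, against 72.4% of all genes. Their summed level was 2607 and 1705 CPM in D12 libraries 9 and 19, against 4384 and 4498 CPM in D8 libraries. Bub1, a kinase of the spindle checkpoint, stood at 51.2 and 29.6 CPM at D12, against 127.7 and 135.2 CPM at D8 (-1.70 ± 0.33, edgeR adjusted p = 0.00148). Mad2l1, another checkpoint gene, fell by 1.03 ± 0.20 (edgeR adjusted p = 0.00148). Plk1, a kinase of mitotic entry, stood at 47.5 and 32.5 CPM at D12, against 87.4 and 102 CPM at D8 (-1.24 ± 0.33, edgeR adjusted p = 0.0106). Top2a, which untangles sister chromatids, was still at 389.6 and 263.2 CPM at D12, against 737.5 and 720.7 CPM at D8, so RNA of dividing cells was present on both days. The count of mitosis genes called rests on single libraries: it was 2 without D12 library 19, 10 without D8 library 17 and 15 without D8 library 13.

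Promoters of these genes are shown because replication and mitosis genes are controlled by different known elements, the E2F site in replication genes and the CHR element with a CCAAT box in mitosis genes. Sequences are from RefSeq on GRCm38.p6, from 250 bases before to 50 after the transcription start, in the direction of transcription. Capitals mark E2F matches in Mcm5, whose CCAAT boxes are left in lower case, and CHR and CCAAT matches in Plk1. The Mcm5 promoter (chr8:75109259-75109558, plus strand) holds 3 E2F matches, of which 2 overlap, and the Plk1 promoter (chr7:122159185-122159484, plus strand) holds 1 CCAAT box and 1 CHR element.
Mcm5: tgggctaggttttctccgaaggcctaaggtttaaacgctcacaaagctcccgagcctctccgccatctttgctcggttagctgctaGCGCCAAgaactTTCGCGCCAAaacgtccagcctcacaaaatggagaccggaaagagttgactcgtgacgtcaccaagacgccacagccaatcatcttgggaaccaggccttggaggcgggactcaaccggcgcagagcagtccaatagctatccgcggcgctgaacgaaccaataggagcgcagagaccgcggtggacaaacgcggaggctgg
Plk1: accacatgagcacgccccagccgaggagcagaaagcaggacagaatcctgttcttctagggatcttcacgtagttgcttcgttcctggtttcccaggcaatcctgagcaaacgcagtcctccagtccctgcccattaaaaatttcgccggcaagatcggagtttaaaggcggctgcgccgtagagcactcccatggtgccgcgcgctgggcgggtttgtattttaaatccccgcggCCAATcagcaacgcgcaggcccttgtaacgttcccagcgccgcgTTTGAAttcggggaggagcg
An E2F site was searched as the letters TTGGCGC, as the variant TTCCCGC and also as the variant TTCGCGC. The CHR element was searched as the letters TTTGAA and the CCAAT box by the letters in its name, all on both strands. Of the 30 replication genes 25 had a promoter in the table, and 68% of these held an E2F match, against 9.2% of 27025 genes with a promoter. Of the 30 mitosis genes 24 had one, with a CHR match in 70.8%, against 20.2% of all, and a CCAAT match in 79.2%, against 41.1% of all. A CCAAT match was also held by 68% of the replication genes with a promoter, so it was not particular to mitosis genes. Among the genes tested, of which 78.1% had a promoter in the table, too few for a full comparison, the shares were 16.4% for E2F, 14.1% for CHR and 42.8% for CCAAT. A match is a description of the sequence and does not show that a factor binds there. Mcm5 itself stood at 44.4 and 27.9 CPM at D12, against 112.7 and 132.5 CPM at D8 (-1.76 ± 0.26, edgeR adjusted p = 0.000257).

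Among 30 regulators of the cell cycle, 7 rose and 10 fell, with a median of -0.08. Ccne2, the cyclin of entry into S phase, stood at 4.90 and 5.04 CPM at D12, against 35.2 and 30.2 CPM at D8 (-2.72 ± 0.18, edgeR adjusted p = 3.06e-06). Ccnd3, a D-type cyclin, went the other way, at 627.3 and 654.5 CPM at D12, against 305.3 and 291.1 CPM at D8 (1.10 ± 0.12, edgeR adjusted p = 3.46e-05), while Ccnd1 (-0.43 ± 0.18, edgeR adjusted p = 0.0711) and Ccnd2 (0.01 ± 0.34, edgeR adjusted p = 0.982) were not called. Mycn, a proto-oncogene of embryonic growth, stood at 14.7 and 13.9 CPM at D12, against 50.7 and 67.7 CPM at D8 (-2.05 ± 0.24, edgeR adjusted p = 4.83e-05). The inhibitors of cyclin-dependent kinases split. Cdkn1c, an imprinted inhibitor, fell by 1.92 ± 0.39 (edgeR adjusted p = 0.00194), whereas Cdkn1b rose by 0.54 ± 0.12 (edgeR adjusted p = 0.00397). Cdkn1a rose by 1.57 ± 0.55 (edgeR adjusted p = 0.0389). Rbl2, the pocket protein of resting cells, rose by 1.22 ± 0.24 (edgeR adjusted p = 0.00143), and Rbl1, its counterpart in cycling cells, fell by 0.92 ± 0.20 (edgeR adjusted p = 0.00264). Of 24 ribosome biogenesis genes 9 fell and 1 rose, with a median of -0.30. Bop1, needed for the large ribosomal subunit, fell by 1.05 ± 0.18 (edgeR adjusted p = 0.000532). Noc2l rose by 0.50 ± 0.11 (edgeR adjusted p = 0.00373). The 9 became 3 without D12 library 19.

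Many genes of the LIN28 circuit of developmental timing fell. LIN28 proteins block the maturation of let-7 microRNAs, and let-7 in turn represses LIN28 and other genes of fetal growth, a circuit first found through timing mutants of the worm. Of 18 genes tested, 11 fell and 0 rose, with a median of -0.98. Lin28a stood at 2.12 and 1.86 CPM at D12, against 47.2 and 78.5 CPM at D8 (-4.98 ± 0.57, edgeR adjusted p = 4.5e-05), after 447.6 to 491.1 CPM at D6. Lin28b stood at 25.0 and 16.7 CPM at D12, against 57.6 and 61.4 CPM at D8 (-1.51 ± 0.24, edgeR adjusted p = 0.000383). The 2 paralogs thus fell by different amounts, and at D12 reads of Lin28b outnumbered those of Lin28a in both libraries. Arid3b, a DNA-binding protein gene of mesoderm, stood at 30.7 and 38.6 CPM at D12, against 214.4 and 201.6 CPM at D8 (-2.59 ± 0.35, edgeR adjusted p = 0.000124). Trim71, a repressor of mRNAs in stem cells, stood at 9.25 and 8.96 CPM at D12, against 38.7 and 41.1 CPM at D8 (-2.13 ± 0.34, edgeR adjusted p = 0.000358). Hmga2, a chromatin protein gene of fetal growth, stood at 329.4 and 266.6 CPM at D12, against 697.4 and 843 CPM at D8 (-1.37 ± 0.27, edgeR adjusted p = 0.00154). Of the mRNA-binding IGF2BP family, Igf2bp3 fell by 0.98 ± 0.13 (edgeR adjusted p = 8.55e-05) and Igf2bp1 by 0.83 ± 0.16 (edgeR adjusted p = 0.00115), while Igf2bp2 was not called (-0.11 ± 0.11, edgeR adjusted p = 0.439).

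The let-7 sequences and their matches are shown because 10 of the timing genes hold a match to them. All 8 mature let-7 microRNAs of the 5p arm found in RefSeq (GRCm38.p6) carry the seed GAGGUAG at bases 2 to 8, in capitals. Shown are let-7a (chr13:48538239-48538260, minus strand), let-7d (chr13:48536078-48536099, minus strand) and let-7i (chr10:122985698-122985719, minus strand).
let-7a: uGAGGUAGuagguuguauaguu
let-7d: aGAGGUAGuagguugcauaguu
let-7i: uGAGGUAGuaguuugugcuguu
The complement of the seed followed by A, CTACCTCA, was searched in the longest 3′ UTR of each gene (GENCODE M21, GRCm38.p6). The sites below are from the 3′ UTRs of Lin28a (chr4:134005178-134005207, minus strand), Trim71 (chr9:114512461-114512490, minus strand), Hmga2 (chr10:120364213-120364242, minus strand) and Igf2bp1 (chr11:95961767-95961796, minus strand), with the match in capitals.
Lin28a: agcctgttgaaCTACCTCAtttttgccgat
Trim71: ttgcctaagtcCTACCTCAgcttaaatttt
Hmga2: acattcaatttCTACCTCAgcatcagttgg
Igf2bp1: tgcgaagtaaaCTACCTCAaggtgtgaagt
Of 17 timing genes with a 3′ UTR, 10 (58.8%) held a match, against 3.71% of 14110 genes tested. The list was made of known let-7 targets and its UTRs are long (median 2775 bases, against 1178), so this share is not independent of the choice. Trim71 held 4 matches, Lin28a 2 and Arid3b 0 in the transcript searched. Over all 524 genes with a match the median log2 fold change was -0.06, against -0.03 for 13586 genes without one, and 21% were called lower, against 19.4%. The fall of the timing genes was therefore not seen over all genes with this match. The let-7 microRNAs themselves are not measured in polyA RNA.

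Genes of glucose uptake and glycolysis fell. Of 25 tested, 10 were called lower and 0 higher (median -0.86). Slc2a1, the embryonic glucose transporter, stood at 174.7 and 267.3 CPM at D12, against 679.2 and 758.4 CPM at D8 (-1.70 ± 0.36, edgeR adjusted p = 0.0025). Slc2a3, the transporter of high affinity, stood at 98.8 and 172.8 CPM at D12, against 607.3 and 523.5 CPM at D8 (-2.06 ± 0.39, edgeR adjusted p = 0.00114). The days did not overlap for either. Slc2a4, the insulin-regulated transporter of muscle, was at 56.9 and 61.5 CPM at D12, against 45.9 and 43.4 CPM at D8, and was not called (0.41 ± 0.21, edgeR adjusted p = 0.145). Slc16a3, which exports lactate, fell by 1.53 ± 0.47 (edgeR adjusted p = 0.0215), and Pfkl, the liver-type phosphofructokinase, fell by 1.84 ± 0.54 (edgeR adjusted p = 0.0168), while the muscle type Pfkm was not called (0.21 ± 0.25, edgeR adjusted p = 0.539). Gapdh and Pgam1 were also called lower, but both have near-identical copies in the genome, few counts here, and are uncertain. The 10 became 4 without D12 library 9, and 5 without either D8 library.

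Some genes known to respond to low oxygen fell. Of 16 hypoxia genes 5 fell and 0 rose, a share below the 36.3% called over all genes. The days did not overlap for 13, beside 72.4% of all genes, and 4 of these 13 had the higher values at D12. Among the 5, Slc2a1 and Pdk1 are shared with the glycolysis list. Egln1, the oxygen sensor that is itself raised by low oxygen, stood at 55.6 and 90.4 CPM at D12, against 241.3 and 229.4 CPM at D8 (-1.69 ± 0.30, edgeR adjusted p = 0.00071), after 67.4 to 85.1 CPM at D6. Ankrd37, another gene raised by low oxygen, stood at 0.960 and 1.59 CPM at D12, against 15.9 and 15.8 CPM at D8 and 0.558 to 4.42 CPM at D6. For Egln1 and Ankrd37 D8 stood above both neighbouring days. This did not hold for Slc2a1, at 707.5 to 900.2 CPM at D6, against 679.2 and 758.4 CPM at D8. The 5 became 2 without D12 library 9 and 3 without D8 library 13.

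Many genes of cholesterol synthesis fell. Of 19 genes of the pathway and its control, 13 were called lower and 0 higher (median -0.79). The days did not overlap for any of the 19, beside 72.4% of all genes that did not. In 3 of the 19, none called by edgeR, the D12 values were the higher ones. Among these were the control genes Srebf2 (log2 fold change 0.11) and Insig1 (0.49). Hmgcs1, at the entry of the mevalonate pathway, stood at 626.1 and 670.3 CPM at D12, against 1287 and 1307 CPM at D8 (-1.0 ± 0.21, edgeR adjusted p = 0.00262). Fdps, which makes farnesyl diphosphate, stood at 56.9 and 57.7 CPM at D12, against 162.9 and 180.1 CPM at D8 (-1.58 ± 0.19, edgeR adjusted p = 5.03e-05). The late steps Nsdhl (-1.56) and Dhcr7 (-1.37) fell as well. The libraries of each day were within a narrow range for these genes, unlike the cardiac genes below. Without D12 library 19 the 13 became 8.

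Fatty acid oxidation changed in few genes. Of 28 tested, 6 rose and 0 fell (median 0.25), which is 21.4% called, below the 36.3% of all genes. Acadl, a long-chain acyl-CoA dehydrogenase gene, stood at 177.3 and 191.2 CPM at D12, against 100.9 and 92.5 CPM at D8 (0.93 ± 0.22, edgeR adjusted p = 0.00458). Pdk4, which shuts glucose carbon out of the mitochondria, stood at 95.9 and 132.4 CPM at D12, against 38.4 and 17.7 CPM at D8 (2.03 ± 0.62, edgeR adjusted p = 0.02). Esrra, a nuclear receptor of mitochondrial genes, rose by 0.74 ± 0.18 (edgeR adjusted p = 0.00531), Lpl, which frees fatty acids from lipoproteins, by 1.60 ± 0.56 (edgeR adjusted p = 0.039), and the fatty acid binding protein gene Fabp4 by 5.48 ± 1.32 from very low counts (edgeR adjusted p = 0.00622). The carnitine shuttle gene Cpt1b of muscle was not called (-0.52 ± 0.71, edgeR adjusted p = 0.6), nor was Ppargc1a (0.14 ± 0.85, edgeR adjusted p = 0.912). The 6 became 3 without D12 library 19 and 2 without D8 library 17, and limma-voom gave 10. Of 47 respiratory chain genes 1 rose, Ndufa10, and 1 fell, Cycs, which has near-identical copies (median 0.13). In D12 library 19, which had more cardiomyocyte RNA, the summed respiratory chain level was 10100 CPM, against 7668 CPM in library 9, and without library 9 the genes called higher became 7, while without library 19 or D8 library 17 they became 0. Of 13 creatine kinase and myoglobin genes 1 rose and 3 fell (median -0.43), which is 30.8% called, also below that share. Slc6a8, the creatine transporter, stood at 120.6 and 142.4 CPM at D12, against 66.8 and 65.4 CPM at D8 (0.99 ± 0.12, edgeR adjusted p = 6.58e-05). The falls were Gamt, an enzyme of creatine synthesis (-1.76 ± 0.41, edgeR adjusted p = 0.00462), the mitochondrial transcription factor gene Tfam (-0.43 ± 0.14, edgeR adjusted p = 0.0263) and the adenylate kinase gene Ak1 (-0.87 ± 0.32, edgeR adjusted p = 0.0466). The 3 became 1 without either D12 library or D8 library 13, and the 1 became 2 without D8 library 13.

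Lysosome genes rose together. Of 22 tested, 16 were called higher and 0 lower, against 16.9% higher over all genes, and all 22 estimates were above 0 (median 0.95, highest 1.44). Their summed level was 10100 and 10250 CPM at D12, against 5057 and 5018 CPM at D8. Ctsl, a cysteine protease of the lysosome, stood at 1218 and 1364 CPM at D12, against 482.2 and 471.7 CPM at D8 (1.44 ± 0.14, edgeR adjusted p = 1.54e-05), after 339.5 to 364.5 CPM at D6. Neu1, the lysosomal sialidase, stood at 158.4 and 144.2 CPM at D12, against 55.6 and 62.0 CPM at D8 (1.36 ± 0.15, edgeR adjusted p = 3.83e-05). Npc2, which carries cholesterol out of the lysosome, rose by 0.91 ± 0.11 (edgeR adjusted p = 6.22e-05). Laptm4a, a lysosomal membrane protein gene, rose by 1.41 ± 0.19 (edgeR adjusted p = 0.0001), and the membrane protein Lamp2 by 1.05 ± 0.21 (edgeR adjusted p = 0.00165). Of 19 blood and macrophage markers tested 4 also rose and 1 fell, which is 26.3% called, below the 36.3% of all genes. The 4 are all genes of macrophages, cells rich in lysosomes, and the marker sums are given above. Cd68 stood at 6.87 and 9.07 CPM at D12, against 2.17 and 1.70 CPM at D8, and the others were Emr1 (3.65), Tyrobp (3.32) and Fcer1g (1.78). The 4 became 2 without D8 library 17, and the 1 became 0 without either D12 library. The part of macrophages in the lysosome rise was not tested.

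**Figure D2:**
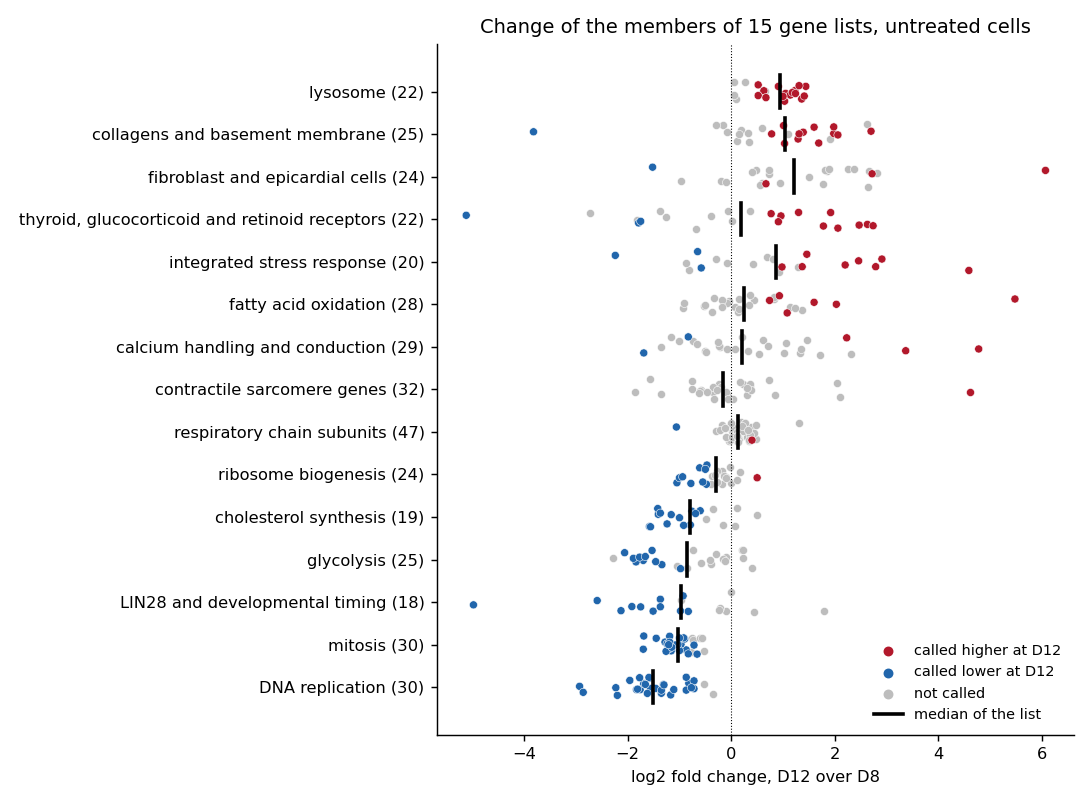
Log2 fold change at D12 over D8 of each tested member of 15 gene lists (number tested in brackets), with members called higher in red, called lower in blue and not called in grey, and the median as a black bar. Replication (median -1.51) and mitosis (-1.02) lie below 0 and lysosome genes (0.95) above it, while sarcomere genes are centred near 0 with 1 call.

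Extracellular matrix genes rose. Of 25 collagen and basement membrane genes, 12 rose and 1 fell (median 1.03). Lamb1, a laminin chain of basement membranes, stood at 1630 and 1882 CPM at D12, against 734.2 and 607.6 CPM at D8 (1.39 ± 0.14, edgeR adjusted p = 2.54e-05), and Lamc1, its partner chain, rose by 1.29 ± 0.15 (edgeR adjusted p = 4.22e-05). Col6a1, a chain of the microfibril collagen of muscle and connective tissue, stood at 477.5 and 495 CPM at D12, against 79.0 and 154.3 CPM at D8 (2.06 ± 0.34, edgeR adjusted p = 0.000436). Lama2, the laminin chain of mature muscle, stood at 147.4 and 144.9 CPM at D12, against 34.0 and 40.3 CPM at D8 (1.98 ± 0.35, edgeR adjusted p = 0.000806). The collagen that fell was Col2a1 of cartilage (-3.82 ± 1.36, edgeR adjusted p = 0.0414), a call lost without any one of the 4 libraries.

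Fibroblast and epicardial genes had higher estimates but few calls. Of 24 tested, 3 rose and 1 fell, which is 16.7% called, below the 36.3% of all genes. An unadjusted p under 0.05 in edgeR was found for 11, and the median was 1.22. Col1a1, the main collagen of fibroblasts, stood at 3258 and 3919 CPM at D12, against 566.8 and 1430 CPM at D8 (1.85 ± 0.79, edgeR adjusted p = 0.0817). Postn, a matrix protein of cardiac fibroblasts and valves, stood at 254.4 and 254.9 CPM at D12, against 27.8 and 52.4 CPM at D8 (2.67 ± 1.16, edgeR adjusted p = 0.0866). For 19 members both D12 libraries lay above both D8 libraries, and for 2 both lay below. Over all genes tested the days did not overlap for 72.4%. The standard errors of the list were wide (median 0.84). Lum, a proteoglycan gene, rose by 2.72 ± 0.91 (edgeR adjusted p = 0.032) and the mesothelial gene Msln by 6.07 ± 1.30 from near 0 (edgeR adjusted p = 0.00258), while Krt19 fell by 1.52 ± 0.51 (edgeR adjusted p = 0.0315). The number called higher was 9 with DESeq2, 10 when the 4 libraries were fitted alone and 1 without D12 library 9, D12 library 19 or D8 library 13.

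Of 13 smooth muscle genes 3 rose and 1 fell (median 0.67), which is 30.8% called, below the 36.3% of all genes. Mylk, the kinase that starts smooth muscle contraction, stood at 45.0 and 45.1 CPM at D12, against 3.19 and 3.57 CPM at D8 (3.73 ± 0.71, edgeR adjusted p = 0.00123). Smtn, a cytoskeletal protein of contractile smooth muscle, stood at 180.6 and 189.7 CPM at D12, against 79.9 and 71.7 CPM at D8 (1.29 ± 0.23, edgeR adjusted p = 0.000859). Myh11, the most specific gene of the list, was at 9.50 and 25.9 CPM at D12, against 2.30 and 3.53 CPM at D8, and was not called (2.60 ± 1.03, edgeR adjusted p = 0.0627). Among cartilage and bone genes 5 of 13 rose and 2 fell. Runx2, the bone-forming factor, stood at 9.90 and 12.6 CPM at D12, against 0.310 and 0.654 CPM at D8 (4.53 ± 0.88, edgeR adjusted p = 0.00146), whereas Sox9, the factor of cartilage and of valve progenitors, stood at 14.3 and 7.53 CPM at D12, against 46.8 and 58.6 CPM at D8 (-2.27 ± 0.37, edgeR adjusted p = 0.000452). The 5 became 2 without D8 library 17, and the 2 became 1 without any of the others. Of 23 endothelial genes 1 was called, Robo4, higher by 2.70 ± 0.83 (edgeR adjusted p = 0.0214) and lost without any library but D12 library 9.

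Few genes of the contractile sarcomere were called between the days. Of 32 tested, 1 rose and 0 fell, which is 3.12% against 36.3% of all genes, and the list median was -0.15. The spread within a day was wide, with a median standard error of 0.96 against 0.24 for all genes. Members not called had log2 changes of up to 2.11 in size, so few calls do not show that these genes were unchanged. Myh6, the fast myosin heavy chain of the heart, stood at 1954 and 4670 CPM in D12 libraries 9 and 19, against 3957 and 1678 CPM in D8 libraries 13 and 17 (0.23 ± 1.12, edgeR adjusted p = 0.89). Tnnt2, cardiac troponin T, stood at 471.7 and 1151 CPM at D12, against 1171 and 870.1 CPM at D8 (-0.33 ± 0.79, edgeR adjusted p = 0.77). Both genes are among the 7 markers, and for both the days overlap, with library 19 above library 9 and library 13 above library 17. Without D12 library 9 the number called was 2. The called gene was Myom2, which encodes a myomesin of the M-band found in adult heart and fast muscle. It stood at 48.0 and 249.6 CPM at D12, against 6.19 and 5.93 CPM at D8 (4.62 ± 0.80, edgeR adjusted p = 0.000668), above the D8 values even in the library poor in cardiomyocyte RNA.

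Because the cardiomyocyte sum differed within each day, cardiac genes were also divided by it, a scaling chosen after the data were seen. Values are CPM per 1000 CPM of the 7 markers, and carry no test. With this scaling the days did not overlap for 21.1% of 14885 genes, in place of 72.4% in CPM. The cause of this lower share was not tested. For 26 sarcomere genes outside the markers the number went the other way, 19 in place of 5, with 9 higher and 10 lower at D12. It also rose for calcium handling genes, given below, but not for other cardiac lists. It was 9 in place of 16 for 21 cardiac transcription factors and 5 in place of 9 for 12 secreted factors. For 28 fatty acid oxidation genes it was 10 in place of 16, and for 13 creatine kinase and myoglobin genes 4 in place of 10. Ankrd1, a stretch-responsive titin-binding protein gene, stood at 154.7 and 156.9 at D12, against 36.1 and 29.2 at D8. Myl2, the ventricular regulatory light chain, was also higher at D12. Myh7, the slow myosin heavy chain of the mouse embryonic ventricle, stood at 64.5 and 117.6 at D12, against 421.5 and 192.6 at D8. Mybpc3, cardiac myosin binding protein C, stood at 79.3 and 78.8 at D12, against 114.6 and 114.8 at D8. The actin genes Actc1 and Acta1, and Tnni1, the troponin I of the embryonic heart, were lower at D12 on this scale too. The marker Myh6 alone made up 542.5 and 536.6 of each 1000 at D12, against 441.7 and 407.2 at D8. A gene at a fixed ratio to the other markers would therefore stand lower at D12 on this scale. A sum without Myh6 was not used, so small falls on this scale, and with them the 10 counted lower, are uncertain. Among these small falls is Actc1, at 277.7 and 312.5 at D12, against 320.1 and 360.7 at D8.

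Few calcium handling genes were called. Of 29 tested in CPM, 3 rose and 2 fell (median 0.20), a share below the 36.3% called over all genes. Per 1000 of the marker sum the days did not overlap for 20, with 14 higher and 6 lower at D12, in place of 12 in CPM. Casq2, the calcium store protein of the cardiac sarcoplasmic reticulum, stood at 49.9 and 84.3 CPM at D12, against 1.68 and 3.18 CPM at D8 (4.78 ± 0.86, edgeR adjusted p = 0.000837). Atp2a2, the calcium pump of the reticulum, stood at 1716 and 3245 CPM at D12, against 1524 and 926.9 CPM at D8, and was not called (1.02 ± 0.39, edgeR adjusted p = 0.0547). Scaled to the markers Atp2a2 stood at 476.3 and 372.9 at D12, against 170.1 and 225 at D8, and Pln, the inhibitor of that pump, at 43.8 and 39.5, against 9.34 and 4.07. The T-type calcium channel gene Cacna1g stood at 73.5 and 56.2 CPM at D12, against 15.5 and 12.3 CPM at D8 (2.23 ± 0.36, edgeR adjusted p = 0.000414). The pacemaker channel gene Hcn4 stood at 10.7 and 13.2 CPM at D12, against 33.2 and 44.0 CPM at D8 (-1.69 ± 0.45, edgeR adjusted p = 0.0103), a call lost without D12 library 9 or D8 library 17. The number called higher was 2 without D12 library 19 or D8 library 17, 5 without D8 library 13 and 7 with DESeq2, and the 2 called lower became 1 without D12 library 9 or D8 library 17. The connexin gene Gjc1 of the early heart fell by 0.83 ± 0.16 (edgeR adjusted p = 0.0016), while Gja1, the connexin of working myocardium, was at 293.9 and 381.1 CPM at D12, against 151.5 and 171.9 CPM at D8, and was not called (1.06 ± 0.43, edgeR adjusted p = 0.0691).

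**Figure D3:**
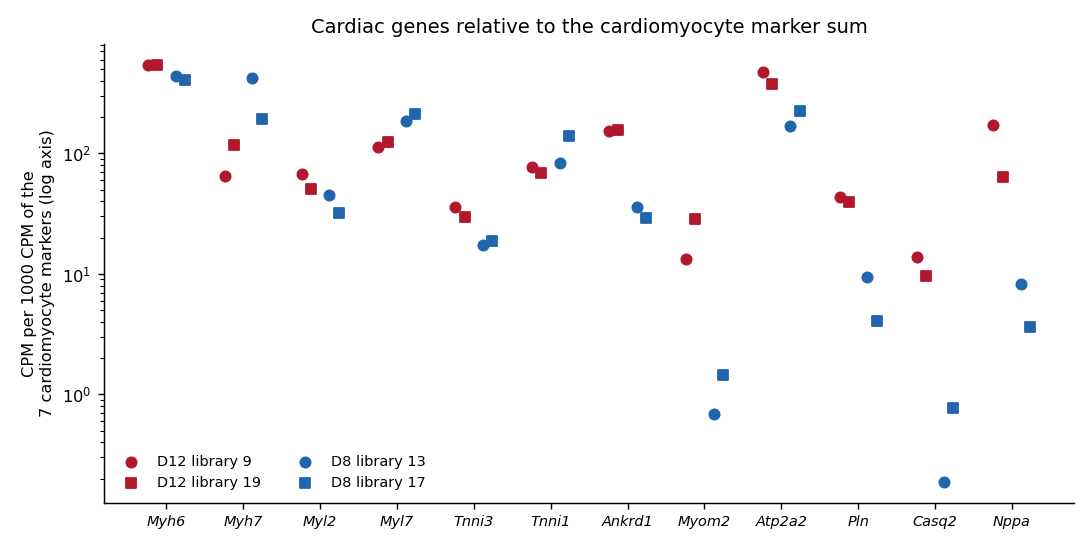
Level of 12 cardiac genes divided by the summed level of 7 cardiomyocyte markers (CPM per 1000 CPM, log axis) in D12 libraries 9 and 19 (red) and D8 libraries 13 and 17 (blue). Myh7, Myl7 and Tnni1 lie lower at D12 and the other 9 genes higher, with the widest gap in Casq2. Myh6, Myl7 and Tnni3 are among the 7 markers.

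Ratios between forms of a protein do not depend on the amount of cardiomyocyte RNA where both are made by these cells alone. Whether this holds was not tested for any pair, and where other cells make 1 of the forms the ratio also depends on the mix of cells. The 21 pairs were set up as a later over an earlier or more general form, an order that was not tested. Their log2 ratio of counts was higher at D12 with no overlap in 10, lower in 4 and overlapping in 7. Without overlap were thus 14 of 21 pairs, beside 72.4% of single genes in CPM, so the share of pairs apart was no higher than that of single genes. With 2 libraries a day no exact test of a pair could fall under the threshold, so these are descriptions, and since counts are not divided by length the ratio shows a shift and not which form is more abundant. Cardiac over slow skeletal troponin I, Tnni3 over Tnni1, stood at -1.09 and -1.22 at D12, against -2.26 and -2.89 at D8. Its range at D6 was -5.10 to -4.38, so this ratio stood higher on each later day. The cardiac myosin ratio Myh6 over Myh7 stood at 3.07 and 2.19 at D12, against 0.07 and 1.08 at D8. The ratio of ventricular to atrial light chain, Myl2 over Myl7, stood at -0.74 and -1.29 at D12, against -2.04 and -2.72 at D8. The cardiac over skeletal calsequestrin ratio, Casq2 over Casq1, moved most and stood at 1.77 and 1.85 at D12, against -5.12 and -3.58 at D8.

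Among metabolic pairs the ratio of the heart to the muscle subunit of lactate dehydrogenase, Ldhb over Ldha, stood at -2.57 and -2.87 at D12, against -3.92 and -4.31 at D8. Of this pair Ldha was called lower (-1.46 ± 0.51, edgeR adjusted p = 0.0373) and Ldhb was not called (-0.12 ± 0.26, edgeR adjusted p = 0.739). The Ldha call was lost under 5 of 11 alternatives, among them each of the 4 without 1 library. The glucose transporter ratio Slc2a4 over Slc2a1 stood at -1.62 and -2.12 at D12, against -3.89 and -4.13 at D8. Not every ratio was higher at D12. Cpt1b over Cpt1a, the muscle over the liver form of the carnitine palmitoyltransferase, was lower at D12, at -7.26 and -6.11, against -4.70 and -5.25 at D8. Skeletal over cardiac actin, Acta1 over Actc1, was lower as well, at -6.22 and -5.83 at D12, against -5.49 and -5.68 at D8. Its range at D6 was -4.42 to -3.10, so this ratio stood lower on each later day. Which of these 2 actins is the later form in these cells was not tested. The respiratory chain pairs Cox6a2 over Cox6a1, Cox7a1 over Cox7a2 and Cox8b over Cox8a overlapped between days.

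**Figure D4:**
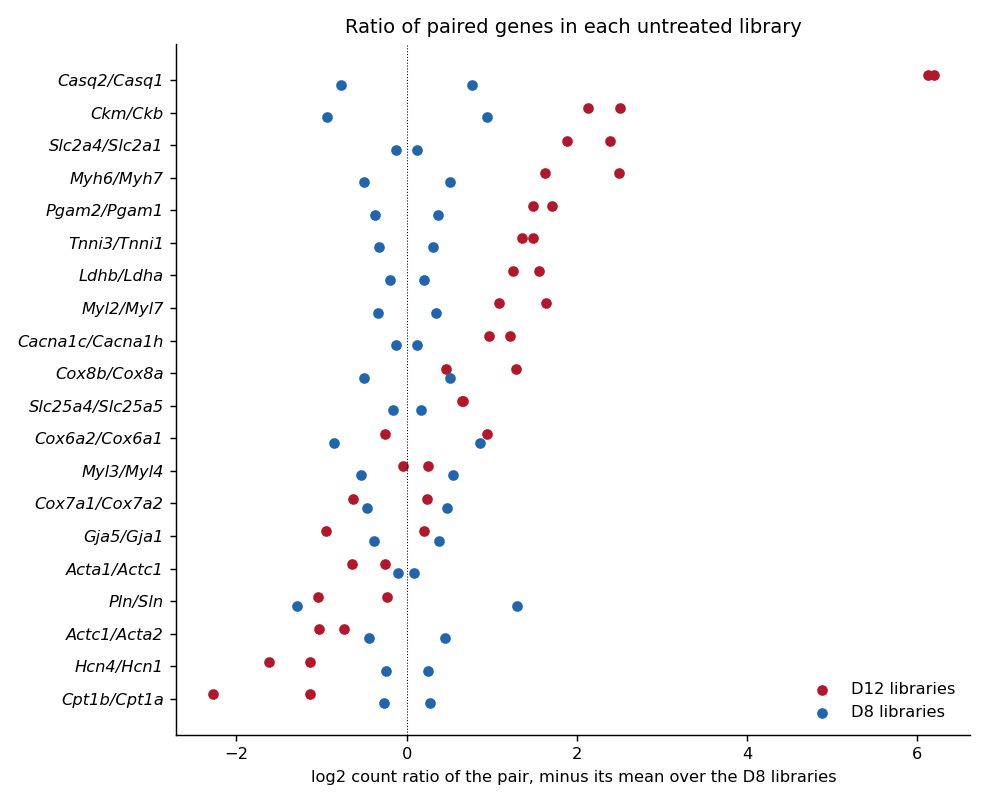
Log2 count ratio of 20 gene pairs in each library, minus the mean of the D8 libraries for that pair, with the D12 libraries (red) drawn above the D8 libraries (blue). Casq2 over Casq1 lies farthest to the right and Cpt1b over Cpt1a farthest to the left at D12. The pair Eno3 over Eno1 is not drawn, since Eno1 had 1 count over the 4 libraries.

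Cardiac transcription factors moved in both directions. Of 22 tested, 3 rose and 1 fell (median -0.47), which is 18.2% called, below the 36.3% of all genes. Mef2a, a MADS-box factor of muscle genes, stood at 157.3 and 157 CPM at D12, against 87.2 and 70.5 CPM at D8 (1.00 ± 0.20, edgeR adjusted p = 0.00163). Mef2d rose by 0.77 ± 0.26 (edgeR adjusted p = 0.0326) and Hey1, a Notch target of the atria, by 1.07 ± 0.37 (edgeR adjusted p = 0.0375), both lost under 5 of 11 alternatives. Mef2c, the family member of early heart cells, stood at 116.3 and 142.8 CPM at D12, against 328.4 and 287.4 CPM at D8, and was just outside the threshold (-1.25 ± 0.47, edgeR adjusted p = 0.0501). Irx3, an Iroquois factor of the conduction system, stood at 3.49 and 5.62 CPM at D12, against 29.2 and 18.4 CPM at D8 (-2.39 ± 0.37, edgeR adjusted p = 0.00033). Nkx2-5 (17.3 and 30.7 CPM at D12, against 86.7 and 39.8 CPM at D8) was not called (-1.40 ± 0.93, edgeR adjusted p = 0.256), and Gata4 was near 0 (0.10 ± 0.57, edgeR adjusted p = 0.905). The 3 called higher were 1 without D12 library 9, D12 library 19 or D8 library 17.

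Of 20 second heart field genes 3 fell and 0 rose (median -0.83), which is 15% called, below the 36.3% of all genes. Nkx2-6, a homeobox gene of the pharyngeal arches and outflow tract, stood at 0 and 0.106 CPM at D12, against 2.88 and 1.31 CPM at D8 (-5.19 ± 0.96, edgeR adjusted p = 0.00104). Isl1, the defining factor of that field, stood at 9.75 and 12.5 CPM at D12, against 31.3 and 25.8 CPM at D8 (-1.36 ± 0.45, edgeR adjusted p = 0.0297). Foxc1 fell by 0.64 ± 0.22 (edgeR adjusted p = 0.0367), and it and Isl1 lost their calls under 5 of 11 alternatives, including each of the 4 without 1 library, so that the 3 became 1 without any single library. Among secreted factors Bmp5 fell, at 8.39 and 9.28 CPM at D12, against 50.3 and 54.7 CPM at D8 (-2.57 ± 0.37, edgeR adjusted p = 0.000178). Nppa, the atrial natriuretic peptide, stood at 622.7 and 549.4 CPM at D12, against 73.2 and 14.8 CPM at D8. The days did not overlap, but the D8 libraries were far from each other and the gene missed the threshold (3.74 ± 1.43, edgeR adjusted p = 0.0553). Gdf15, a stress-induced hormone, rose by 2.79 ± 0.65 (edgeR adjusted p = 0.00471).

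Of 17 genes of the Hedgehog pathway and its targets, 1 rose and 5 fell (median -0.18). This is 35.3% called, near the 36.3% of all genes. Gas1, a co-receptor for Hedgehog ligands, stood at 120.2 and 92.1 CPM at D12, against 23.4 and 25.7 CPM at D8 (2.11 ± 0.31, edgeR adjusted p = 0.000226). Ptch1, the main receptor and target, was at 49.6 and 43.6 CPM at D12, against 33.4 and 29.6 CPM at D8, and was not called (0.56 ± 0.38, edgeR adjusted p = 0.268). Gli3 fell by 0.44 ± 0.14 (edgeR adjusted p = 0.0251), and Gli1 was not called (-0.18 ± 0.96, edgeR adjusted p = 0.904). The 5 became 2 without D12 library 19 and 3 without either D8 library.

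Among WNT, BMP and TGF-beta genes 4 of 30 rose and 2 fell, which is 20% called, below the 36.3% of all genes. The rises were led by secreted inhibitors of WNT. Sfrp2 stood at 126.8 and 102.7 CPM at D12, against 7.70 and 9.85 CPM at D8 (3.71 ± 0.44, edgeR adjusted p = 5.34e-05), and Sfrp1 at 1119 and 738.8 CPM, against 161.2 and 148.4 CPM (2.58 ± 0.36, edgeR adjusted p = 0.000164). Dkk3, of the Dickkopf family, rose by 2.67 ± 0.64 (edgeR adjusted p = 0.00553), and the TGF-beta family gene Inhba by 2.34 ± 0.80 (edgeR adjusted p = 0.0344). The falls were both nuclear factors of the WNT pathway, Tcf7 (-1.37 ± 0.28, edgeR adjusted p = 0.00214) and Lef1 (-1.66 ± 0.49, edgeR adjusted p = 0.0172), and the 2 became 1 without D12 library 9 or D8 library 17.

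Genes of hormone response moved in both directions, with more rises. Of 22 genes of thyroid, glucocorticoid and retinoid response, 10 rose and 3 fell (median 0.19), against 16.9% higher and 19.4% lower over all genes. Nr3c1, the glucocorticoid receptor, stood at 169.2 and 148.1 CPM at D12, against 40.1 and 36.1 CPM at D8 (2.06 ± 0.26, edgeR adjusted p = 8.68e-05), after 15.9 to 21.1 CPM at D6. Fkbp5, a gene that glucocorticoids raise in many tissues, went the other way, at 16.2 and 17.8 CPM at D12, against 57.0 and 60.4 CPM at D8 (-1.79 ± 0.15, edgeR adjusted p = 8.04e-06). Per1 (0.91 ± 0.17, edgeR adjusted p = 0.000908), Klf9 (1.92 ± 0.51, edgeR adjusted p = 0.0101) and Klf15 (1.78 ± 0.41, edgeR adjusted p = 0.00452), which glucocorticoids also raise, were higher at D12. Thra, the main thyroid hormone receptor of the heart, rose by 0.96 ± 0.18 (edgeR adjusted p = 0.00126), and Thrb by 2.63 ± 0.78 from under 1 CPM (edgeR adjusted p = 0.018). The 10 became 6 without D8 library 13, and the 3 became 1 without D12 library 19.

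Of 18 autonomic and hormone receptor genes 5 rose and 0 fell (median 0.60). This is 27.8% called, below the 36.3% of all genes, of which 16.9% rose. Ednrb, an endothelin receptor gene, stood at 400.6 and 208.6 CPM at D12, against 37.3 and 55.0 CPM at D8 (2.72 ± 0.53, edgeR adjusted p = 0.00153). Ghr, the growth hormone receptor, stood at 259.4 and 231.8 CPM at D12, against 107.8 and 100.7 CPM at D8 (1.24 ± 0.23, edgeR adjusted p = 0.000982). Insr, the insulin receptor, rose by 1.10 ± 0.26 (edgeR adjusted p = 0.00511), and Chrm2, the muscarinic receptor of the heart, by 1.59 ± 0.52 (edgeR adjusted p = 0.0292). The D12 libraries were far apart for Ednrb and close for Ghr, and the days did not overlap for either. The 5 became 3 without D12 library 9 or D8 library 17.

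Part of the integrated stress response rose. This program, in which the factor ATF4 raises genes of amino acid supply and of cell death, had 8 of 20 members called higher and 3 lower (median 0.86). Atf4 stood at 284.8 and 305.6 CPM at D12, against 102.1 and 112.3 CPM at D8 (1.46 ± 0.25, edgeR adjusted p = 0.000616). Its level at D6 had been 205.5 to 303 CPM, so D8 was the lowest of the 3 days. Ddit3, the factor CHOP, stood at 94.3 and 85.8 CPM at D12, against 13.1 and 10.8 CPM at D8 (2.91 ± 0.47, edgeR adjusted p = 0.000406). Slc3a2, a subunit of amino acid transporters, rose by 1.37 ± 0.18 (edgeR adjusted p = 9.2e-05). Serine synthesis did not follow, with Psph lower by 0.58 ± 0.21 (edgeR adjusted p = 0.041), Phgdh not called (-0.29 ± 0.44, edgeR adjusted p = 0.636) and Psat1 not called (-0.81 ± 0.36, edgeR adjusted p = 0.089). Ddit4, which restrains mTOR and is also raised by low oxygen, fell by 2.24 ± 0.50 (edgeR adjusted p = 0.0037). The 8 became 5 without either D8 library, and the 3 became 1 without D12 library 9 or D8 library 17.

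The promoter of Trib3, a pseudokinase that dampens this program, is shown because its ATF4 element lies close to the transcription start. It covers chr2:152344011-152344310 on the minus strand (RefSeq, GRCm38.p6), with the element, here on the opposite strand, in capitals.
Trib3: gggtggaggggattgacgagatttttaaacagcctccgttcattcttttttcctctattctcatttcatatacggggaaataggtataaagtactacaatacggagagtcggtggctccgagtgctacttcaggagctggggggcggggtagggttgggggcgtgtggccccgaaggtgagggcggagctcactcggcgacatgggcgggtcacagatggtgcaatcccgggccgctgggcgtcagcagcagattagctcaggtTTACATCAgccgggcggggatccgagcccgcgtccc
The element was searched as TGATGNAA on both strands. Of the 20 stress response genes 19 had a promoter, and 36.8% of these held a match, against 4.51% of all 27025 genes with a promoter and 2.68% of the genes tested that had one. Trib3 stood at 28.4 and 28.6 CPM at D12, against 6.68 and 5.75 CPM at D8 (2.20 ± 0.77, edgeR adjusted p = 0.0392), a call lost under 5 of 11 alternatives.

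Some innate immune genes rose. Of 19 interferon and antigen presentation genes 5 rose and 0 fell (median 0.81). This is 26.3% called, below the 36.3% of all genes, of which 16.9% rose. B2m, the light chain of MHC class I, stood at 204.1 and 198.3 CPM at D12, against 81.4 and 81.2 CPM at D8 (1.31 ± 0.32, edgeR adjusted p = 0.00647). Bst2, an interferon-inducible restriction factor, stood at 55.2 and 51.6 CPM at D12, against 17.7 and 10.8 CPM at D8 (1.91 ± 0.30, edgeR adjusted p = 0.000339). Of 10 complement genes 4 rose and 0 fell (median 2.13), with Serping1, the C1 inhibitor, higher by 1.49 ± 0.31 (edgeR adjusted p = 0.00209). The 4 macrophage markers given above also rose, with Cd68 higher by 2.04 ± 0.38 (edgeR adjusted p = 0.000973). The part of macrophages in these rises was not tested. The 5 interferon genes became 2 without D12 library 9 or D8 library 17 and 3 without D12 library 19 or D8 library 13, and the 4 complement genes became 2 without D8 library 17.

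**Figure D5:**
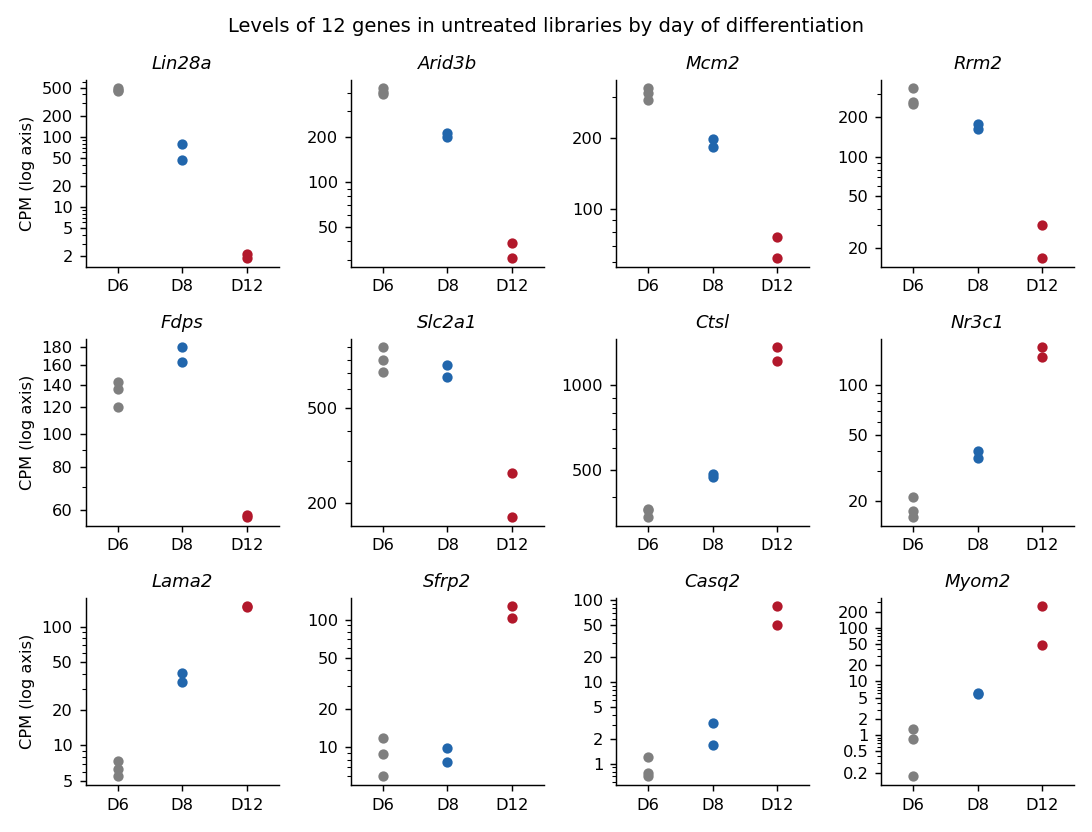
CPM (log axis, scales differ) of 12 genes in the untreated libraries at D6 (3, grey), D8 (2, blue) and D12 (2, red), each point 1 library. Lin28a, Arid3b, Mcm2 and Rrm2 are lower and Ctsl, Nr3c1 and Lama2 higher on each later day, whereas Fdps is highest at D8 and Slc2a1 is lower at D12 than on both earlier days.

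The pulsed cells, which share no library with the untreated cells, gave a second measure of the same interval. In them 4985 genes (33.5%) were called at D12 over D8, 2374 higher and 2611 lower. Of the genes that rose in untreated cells 1900 also rose in pulsed cells, 75.4% of the untreated and 80% of the pulsed calls. Of those that fell 2152 also fell, 74.5% of the untreated and 82.4% of the pulsed calls, and 0 genes called in untreated cells were called the other way. By list, 26 of 30 replication genes fell in pulsed cells, as did 14 of 30 mitosis genes, 11 of 18 timing genes and 13 of 19 cholesterol genes, and 18 of 22 lysosome genes and 16 of 25 collagen and basement membrane genes rose. Other lists gave different counts: 11 of 47 respiratory chain genes rose in pulsed cells, against 1 in untreated cells, and hypoxia genes had 2 higher and 3 lower in pulsed cells, against 0 and 5 in untreated cells. These counts of calls were not tested against each other. Lin28a changed by -4.11 (edgeR adjusted p = 0.000122), Myom2 by 4.97 (0.000731) and Casq2 by 5.47 (0.000679) in pulsed cells.

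Whether the change from D8 to D12 differed between untreated and pulsed cells was tested directly. Of 14892 genes 0 were called (0%) by edgeR, and 0 by DESeq2 and by limma-voom, while 355 had an unadjusted p under 0.05 in edgeR, where the smallest adjusted p was 1. The 6 genes of smallest p included Lama4, a laminin chain, which stood at 170.9 and 261.2 CPM at D12, against 221.7 and 169.6 CPM at D8 in untreated cells (0.14 ± 0.26, edgeR adjusted p = 0.696), while its change in pulsed cells was 1.61 (edgeR adjusted p = 0.000578). They also included Matn4, Negr1, Trpm6, Fam178a and 4930513N10Rik. With 2 libraries in each of the 4 groups, a difference of this kind had to be large against the spread to be called, so the result does not show that the intervals were alike.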

How the data were processed

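Whole-number counts of reads per gene were deposited by the authors for 18 libraries of polyA RNA (HiSeq4000, 50 base single-end reads, per the labels' protocols). Neither aligner nor counter, strand setting or genome build is given in the sources used here. The deposited count table had 23337 genes. Genes with near-identical copies (Gapdh, Pgam1, Eno1, Cycs, Slc25a5, Hba-a1, Hbb-b1) are uncertain. D5 libraries were not used as context because some such genes stood at other levels there.

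Counts were fitted with edgeR 4.0.16 (R 4.3.3; robust quasi-likelihood, trimmed mean of M-values, filterByExpr with a minimum count of 10) in a model of the 7 groups of all 18 libraries, leaving 14892 genes and 11 residual degrees of freedom. Genes were called at a Benjamini-Hochberg adjusted p under 0.05. Values after ± are standard errors on the log2 scale. On simulated counts 48 of 100 genes changed 2-fold and 83 of 100 changed 4-fold were called, with 6 of 14534 unchanged genes, over 14734 genes for D12 over D8. The simulation changed far fewer genes than were called in the data. It also drew each gene independently, without the shared difference in cardiomyocyte RNA between libraries of a day. These shares therefore do not give the power or error rate of the comparison itself. Alternatives were DESeq2 1.42.0, limma-voom 3.58.1, other scalings, no filter, fewer libraries and leaving out each library.

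Genes named were the 10 largest rises and falls of called genes above a mean log2 CPM of 1 with days that did not overlap, from each list the 4 called members, at most, of smallest adjusted p, both members of each pair, and 6 genes for the difference between intervals. The members and lists were chosen with earlier results of these data known, and list members named beyond this rule were chosen after their values were seen. Ratios of counts used a pseudocount of 0.5. Some genes that the rule names are not reported here.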

Additional observations from a re-analysis of the deposited data

How the results depend on the processing

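The number of genes called was 3492 to 3900 when 1 of the 4 libraries was left out, against 5411 with all, with 1630 to 1835 higher and 1832 to 2139 lower. With DESeq2 it was 5907, with limma-voom 5339, without the filter 5041, with the 4 libraries alone 4916 and with the 11 control libraries 5147. Of 179 genes named by rule 142 were called, 87 of them under all 11 alternatives, and 55 lost the call under at least 1, 29 of these only when a library was left out. No paired analysis was possible because the count columns carry no replicate numbers that the days share. Depth limits genes below a few CPM, and 2 libraries a day limit the precision of all others. The cause of the lost calls was not tested.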

Other observations

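Imprinted growth genes moved in both directions, with 2 of 17 higher and 4 lower at D12. This is 35.3% called, near the 36.3% of all genes. Meg3, a maternally expressed long RNA, rose by 1.36 on the log2 scale, and Peg3, a paternally expressed zinc finger gene, fell by 0.85 (both called by edgeR). The 4 lower became 2 without D12 library 9, D12 library 19 or D8 library 17, and the 2 higher became 1 without D12 library 9 or either D8 library. Of 25 HOX genes, which give positional identity along the body axis, 0 were called higher and 1 lower, a call lost without any single library. Of 11 genes of the primitive streak and early mesoderm 2 fell and 0 rose, which is 18.2% called, below the 36.3% of all genes. The 2 became 0 without D12 library 9, D12 library 19 or D8 library 17 and with limma-voom.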
